A study of Mus musculus with 9 samples.

Results

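The 10 genes described here are *Jak2*, *Stat3*, *Stat5a*, *Stat5b*, *Stat6*, *Socs1*, *Socs2*, *Socs3*, *Cish* and *Pim1*. They are parts and feedback targets of JAK/STAT signaling, and the list was chosen with earlier results of these data known. All were found by symbol among the 53801 genes counted. Their RNA was measured in monocytes/macrophages sorted as CD11c-Ly6G-CD11b+CD45high cells from male C57BL/6J mice aged 9 weeks. In stroke mice the distal branch of the middle cerebral artery and the common carotid artery had been closed for good on the left side (dMCAO), and their blood and ipsilesional brain hemisphere were taken after 5 days. The sham blood group came from sham-operated mice, for which the day of collection was not given. Sham blood had 3 libraries, as did the blood and the brain of stroke mice, where a blood library held the cells of 1 mouse and a brain library a pool of cells from 5 mice. No library came from the brain of a sham-operated mouse, so brain and blood cells were compared across tissues.

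Many cytokine receptors have no enzyme activity of their own and carry a JAK kinase on their cytoplasmic tail. After the cytokine binds, the JAK phosphorylates the receptor and then a STAT protein, which forms a dimer, enters the nucleus and binds DNA. JAK2 serves receptors for colony stimulating factors, erythropoietin, growth hormone and interferon gamma, STAT3 is best known downstream of IL-6 and IL-10, STAT5A and STAT5B downstream of colony stimulating factors and common gamma chain cytokines, and STAT6 downstream of IL-4 and IL-13. The SOCS proteins and CISH are induced by STATs and then block the receptor or the JAK, which closes a feedback loop. PIM1 is a serine/threonine kinase that is active without phosphorylation by an upstream kinase, so that its activity depends largely on its amount. STATs contribute to its transcription, and protein was not measured here.

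Libraries held 18475118 to 22623578 counts, and 3 counts, the smallest number taken to show detection, were worth 0.1326 to 0.1624 counts per 1000000 counts of the library (CPM). Levels below are given in CPM. Fold changes come from edgeR, whose TMM scaling factors were 1.05 to 1.07 in the brain libraries and 0.925 to 0.961 in stroke blood, and which therefore lowered brain relative to stroke blood. The sorted cells carried the monocyte/macrophage markers in every group, with 0 of the 10 markers at or below 3 counts in all libraries of a group, although the summed level was 98600 to 110000 CPM in stroke blood and 47400 to 53000 CPM in the brain. Marker sums of other cells also differed. The 10 microglia markers summed to 149 to 218 CPM in stroke blood and 1420, 2060 and 3890 CPM in brain replicates 1, 2 and 3, with 4 of the 10 (*Sall1*, *Siglech*, *Olfml3* and *Slc2a5*) at or below 3 counts in each stroke blood library and all 10 called higher in the brain. The erythroid markers fell from between 13800 and 18500 CPM to at most 14.5 CPM, and were at 1220 CPM in sham blood replicate 1 against 30400 CPM or more in the other sham libraries. Brain tissue was dissociated with enzymes, a machine and heat and blood was not, and the 13 early genes that such handling can induce summed to 3680 to 4800 CPM in stroke blood and 15700 to 17000 CPM in the brain, where 10 of them were called higher. The part of these differences in the results below was not tested, and handling and tissue cannot be told apart in this design.

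A gene was called where its log2 fold change lay beyond 1 in either direction with a P-value below 0.05 after Benjamini-Hochberg adjustment over all genes tested. Between brain and stroke blood, 5 of the 10 genes were called higher in the brain, namely *Cish*, *Socs2*, *Pim1*, *Jak2* and *Socs3*, and none was called lower. Of the 13189 genes tested, 13.1% were called higher and 7.86% lower. The median log2 fold change of the 10 genes was 0.87, against 0.06 over all genes tested. Because the 10 were chosen with earlier results of these data known, these figures only describe them. The genes called were thus the kinase gene *Jak2* and 4 genes known to be induced by STATs. None of the 4 STAT genes was called, although *Stat3* passed the P-value without reaching the fold threshold (0.55, edgeR adjusted P = 0.0235). *Socs1*, also a gene that STATs induce, was not called. Whether STATs caused these differences was not tested. In bulk RNA, more cells of a type and more RNA per cell cannot be told apart.

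**Figure D1:**
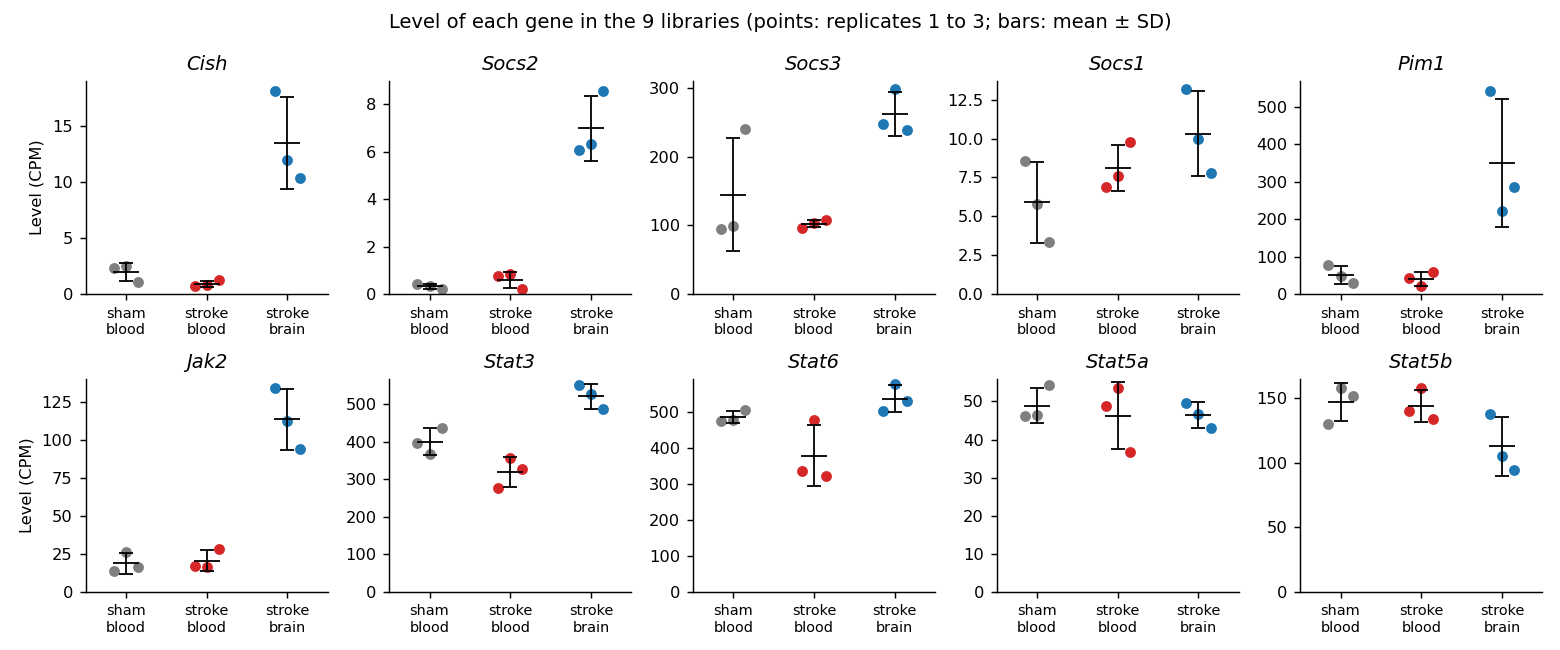
Level of each of the 10 genes in CPM (vertical axis, starting at 0) in sham blood, stroke blood and stroke brain, with points for the 3 libraries of a group in the order of their replicate numbers, and a bar and whiskers for the mean ± SD. *Cish*, *Socs2*, *Pim1* and *Jak2* lie higher in each brain library than in all 6 blood libraries, while *Socs3* in sham blood replicate 3 (240 CPM) lies among the brain libraries.

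*Cish* had the largest estimated rise. It encodes CISH, the first member of the SOCS family to be described, a target of STAT5 that binds activated cytokine receptors. The gene lies on chromosome 9 of GRCm38, from 107296026 to 107302784 on the plus strand. Its level was 0.724, 0.788 and 1.24 CPM in the 3 stroke blood libraries and 18.1, 11.9 and 10.3 CPM in brain replicates 1, 2 and 3, which did not overlap. The log2 fold change was 3.71 ± 0.40 (SE, edgeR adjusted P = 0.00024), a 13.1-fold rise with a 95% interval of 2.82 to 4.60 on the log2 scale. The stroke blood values rest on only 15 to 23 counts per library. Exons of *Cish* share 7.46% of their bases with Gm17041 and 4.07% with Gm17040, both on the opposite strand, and 13.2% of the 75-base stretches of its transcript occur in one of them. The strand setting of the counting was not given, so reads of these genes and of *Cish* may be split or lost.

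The RefSeq start of *Cish* is marked by a pair of STAT motifs. STAT dimers bind TTCNNNGAA, a palindrome that was searched on both strands at once. The RefSeq promoter window (250 bases before to 50 after the start, GRCm38.p6) of *Cish* held 2 matches, at positions 1 and 12 from the start, and these are shown because only 0.457% of the 32851 windows held 2 or more. They lie in chr9:107296654-107296683 on the plus strand, inside the 5′ untranslated part of the longer GENCODE transcript, with capitals for the matches:
Cish: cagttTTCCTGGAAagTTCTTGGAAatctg
No count in these data was taken at the site itself, so the matches describe the sequence only.

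*Socs2*, whose product restrains growth hormone signaling through JAK2 and STAT5B, went from barely detected to low. It lies on chromosome 10, from 95385362 to 95417180 on the minus strand. Stroke blood libraries held 0.772, 0.835 and 0.216 CPM, or 4 to 18 counts, and brain libraries 6.08, 6.32 and 8.56 CPM. The brain libraries all lay above the blood libraries, and the log2 fold change was 3.35 ± 0.52 (adjusted P = 0.00154; 95% interval 2.18 to 4.52). A pseudogene, Gm9847, shares 5.47% of the 75-base stretches of the *Socs2* transcript, and reads from there cannot be assigned with certainty.

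*Socs3* had the highest level per length of the SOCS genes in each group. Its product binds gp130, the shared receptor chain of the IL-6 family, and inhibits the JAK held there. The gene is at 117966079 to 117970047 on the minus strand of chromosome 11. Stroke blood libraries held 96.3, 104 and 107 CPM and brain libraries 248, 298 and 238 CPM. The groups did not overlap and the stroke blood libraries lay close together (coefficient of variation 5.35%), so the small rise of 1.2 ± 0.16 on the log2 scale was well resolved (adjusted P = 0.000602). Its 95% interval of 0.85 to 1.55 includes the threshold of 1. The 10 neutrophil markers summed to 438 to 774 CPM in stroke blood and 932 to 1480 CPM in the brain. Of 8 tested, 6 were called higher and 1 (*Mmp8*) lower, and their part in the rise of *Socs3* was not tested.

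The promoter window of *Socs3* held 1 match to the same motif, 154 bases before the RefSeq start, in chr11:117969502-117969530 (GRCm38.p6, minus strand), in an intron of a noncoding transcript of the gene. It is shown with the match in capitals as the other member whose window held the motif:
Socs3: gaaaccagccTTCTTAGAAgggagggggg
TTCNNNGAA had at least 1 match in 8.3% of all windows. The windows of *Socs1*, *Stat3*, *Stat5a*, *Stat5b*, *Stat6*, *Jak2* and *Pim1* held none, and none of the 12 windows held TTCNNNNGAA, the form with 4 bases between the arms that STAT6 prefers, which 6.95% of all windows held. *Socs2* had no entry in the table. These letters may occur outside the 300 bases examined.

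*Socs1*, whose product inhibits JAKs directly after interferon and IL-4 signaling, was not called. It lies on chromosome 16, from 10782240 to 10785536 on the minus strand. Stroke blood libraries held 6.90, 7.61 and 9.77 CPM and brain libraries 13.2, 9.99 and 7.77 CPM, which overlapped. The difference was 0.19 ± 0.30 on the log2 scale (adjusted P = 0.663), and its 95% interval of -0.48 to 0.86 excludes a doubling but not smaller changes.

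*Pim1* had the largest spread among the brain libraries. It is on chromosome 17, from 29490812 to 29496111 on the plus strand. Its level was 42.3, 22.3 and 59.3 CPM in stroke blood and 543, 222 and 285 CPM in the brain. The coefficient of variation was 48.5% in the brain and 44.9% in stroke blood, and the lowest brain library was still above the highest blood library. The log2 fold change was 2.92 ± 0.42 (adjusted P = 0.00106; 95% interval 1.97 to 3.86). An antisense gene, Gm26885, covers 14.52% of its exon bases.

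*Jak2* was the only kinase of its family to be called. It is on chromosome 19, from 29251828 to 29313080 on the plus strand. Stroke blood libraries held 17.1, 16.1 and 28.4 CPM and brain libraries 134, 112 and 94.1 CPM. These did not overlap, and the log2 fold change was 2.30 ± 0.26 (adjusted P = 0.000327; 95% interval 1.71 to 2.90), a 4.93-fold rise. No exon of another gene overlapped it, and none of the 75-base stretches of its transcript occurred elsewhere.

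The STAT genes moved far less. *Stat3*, *Stat5a* and *Stat5b* are neighbours on chromosome 11, from 100885098 to 100939540 (minus strand), 100859351 to 100885169 (plus strand) and 100780731 to 100850724 (minus strand). *Stat3* held 276, 357 and 327 CPM in stroke blood and 552, 527 and 487 CPM in the brain. All brain libraries were above all blood libraries, but the log2 fold change of 0.55 ± 0.15 (adjusted P = 0.0235) did not reach the threshold of 1. *Stat6*, on the plus strand of chromosome 10 from 127642986 to 127660957, held 336, 476 and 321 CPM in stroke blood and 502, 577 and 529 CPM in the brain. Its groups did not overlap either, and the difference of 0.35 ± 0.18 did not pass the test (adjusted P = 0.16; 95% interval -0.04 to 0.75).

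*Stat5a* held 48.7, 53.6 and 36.6 CPM in stroke blood and 49.7, 46.6 and 43.0 CPM in the brain. The ranges coincided, with a difference of -0.15 ± 0.18 (adjusted P = 0.582; 95% interval -0.56 to 0.27) that turned to 0.01 when libraries were scaled by their totals alone. *Stat5b* held 140, 158 and 134 CPM in stroke blood and 138, 105 and 94.5 CPM in the brain. It was the member with the lowest fold change, -0.51 ± 0.17 (adjusted P = 0.0505; 95% interval -0.90 to -0.12), and brain replicate 1 lay within the blood range. STAT5A and STAT5B are close paralogs, and 387 of the 3531 stretches of 75 bases in the *Stat5a* transcript also occur in that of *Stat5b* (7.53% of its own). *Stat3* and *Stat5a* also share 72 bases of exon on opposite strands. In all, 7 of the 10 genes did not overlap between brain and stroke blood, a property of 49.2% of the genes tested.

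The 3 brain libraries were not alike. Replicate 1, which had the lowest sum of microglia markers (1420 CPM), had the highest *Cish*, *Jak2*, *Pim1*, *Socs1*, *Stat3*, *Stat5a* and *Stat5b* levels. Replicate 3, with the highest microglia sum (3890 CPM), had the highest *Socs2* level and the lowest levels of those 7 genes other than *Pim1*. This order of replicates was not particular to microglia markers. Border macrophage markers (56.7, 116 and 189 CPM) and T and NK cell markers (857, 1590 and 1710 CPM) also rose from replicate 1 to 3. Dendritic cell markers fell (694, 579 and 559 CPM). The sum of early genes differed little between the 3 brain libraries, from 15700 to 17000 CPM, but single early genes varied more. Replicate 1 had the highest *Nr4a1* level (3400 CPM, lowest brain library 735 CPM) and the lowest *Fos* level (2020 CPM, highest brain library 4520 CPM). The part of these genes in the differences between brain libraries was not tested. Leaving out replicate 1 lowered the log2 fold change of *Pim1* to 2.47 and the 5 calls were kept in each of the 6 fits with a library left out.

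**Figure D2:**
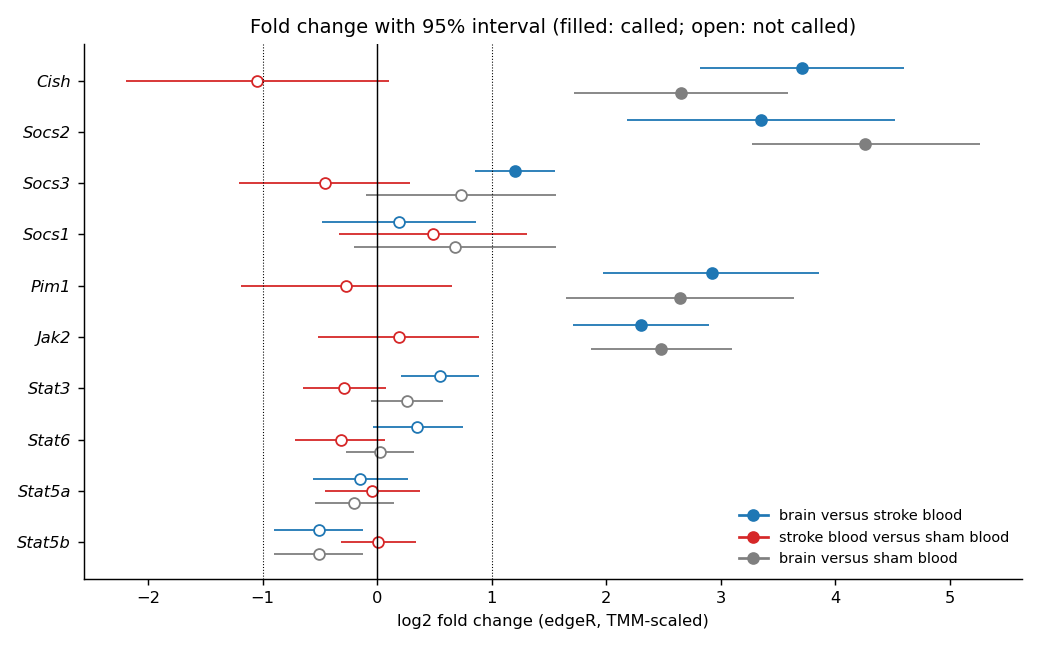
Log2 fold change of each gene (horizontal axis) in the 3 comparisons, with lines for the 95% interval, filled points for called genes, open points for genes tested and not called, and dotted lines at -1 and 1. *Socs2* was not tested between stroke and sham blood. All filled points lie above 1, between brain and blood.

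The comparison of stroke blood with sham blood asked whether the circulating cells already differed. None of the 10 genes was called: 9 were tested, *Socs2* did not pass the filter on low counts, and edgeR called 1 of 12664 genes, or 0.0079%. Not one of the 9 had an unadjusted P-value below 0.05, as 1581 genes had, and DESeq2, which called 135 genes in all, called none of them. The median log2 fold change of the 9 genes was -0.27, against -0.03 over all genes tested.

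The largest difference was that of *Cish*, at 2.33, 2.49 and 1.03 CPM in sham blood. Stroke blood replicate 3 (1.24 CPM) lay above the lowest sham library, and the difference of -1.05 ± 0.51 had an adjusted P of 0.438 and a 95% interval of -2.19 to 0.10. *Stat3* held 398, 367 and 438 CPM in sham blood, above each stroke blood library, and 18.7% of all genes tested likewise had no overlap between the groups. Its difference was -0.29 ± 0.16 (adjusted P = 0.485). *Stat6* held 473, 477 and 504 CPM in sham blood, and stroke blood replicate 2 at 476 CPM reached that range. The remaining differences were between -0.46 and 0.49, and a log2 change of 1 in either direction lay outside the 95% intervals of *Stat3*, *Stat5a*, *Stat5b*, *Stat6* and *Jak2*.

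Against sham blood, which shares the brain libraries with the comparison above, 4 of the 10 genes were called higher in the brain and none lower, where 9.75% of 13020 genes were called higher and 3.67% lower. *Socs2* held 0.438, 0.329 and 0.217 CPM in sham blood and had a log2 fold change of 4.26 ± 0.43 (adjusted P = 0.00104). *Cish* had one of 2.65 ± 0.40 (adjusted P = 0.00511). *Pim1* held 76.3, 47.6 and 29.8 CPM in sham blood, with 2.64 ± 0.43 (adjusted P = 0.00651). *Jak2* held 13.7, 26.4 and 16.0 CPM, with 2.48 ± 0.27 (adjusted P = 0.00133). These 4 genes were thus higher in the brain than in either kind of blood. Groups did not overlap for 5 of the 10 genes, where 41.7% of genes tested did not, and the fifth was *Stat3*, with 0.26 ± 0.13 (adjusted P = 0.215).

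The call of *Socs3* against sham blood depended on 1 library. It held 94.6, 99.2 and 240 CPM in sham blood, and its log2 fold change of 0.73 ± 0.36 had an adjusted P of 0.19. Without sham blood replicate 3 it was 1.31 (adjusted P = 0.00785), and the count of genes called rose to 5. The same library had the highest sum of the 10 neutrophil markers, 2970 CPM against 747 and 937 CPM in the other sham libraries and 932 to 1480 CPM in the brain, with none of the 10 at or below 3 counts throughout a group. The part of these transcripts in its *Socs3* level was not tested. *Socs1*, at 8.56, 5.78 and 3.36 CPM in sham blood, differed by 0.68 ± 0.38 (adjusted P = 0.25). *Stat5b*, at 130, 158 and 152 CPM, differed by -0.51 ± 0.17 (adjusted P = 0.0723). *Stat5a*, at 46.2, 46.4 and 54.2 CPM, and *Stat6* differed by -0.20 and 0.02.

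Per length of the transcript with the longest coding sequence, the order of the 10 genes in stroke blood was *Stat6* (100 ± 22.6 CPM per kb, SD, n = 3), *Stat3* (70.9 ± 9.16), *Socs3* (40.1 ± 2.14), *Stat5b* (27.6 ± 2.41), *Pim1* (15.3 ± 6.87), *Stat5a* (12.8 ± 2.43), *Jak2* (4.09 ± 1.36), *Socs1* (2.78 ± 0.514), *Cish* (0.322 ± 0.0989) and *Socs2* (0.143 ± 0.0803). The neighbours *Pim1* and *Stat5a*, and *Jak2* and *Socs1*, overlapped in these libraries. The order of the means was the same in sham blood. In the brain it became *Stat6* (142 ± 10.0), *Pim1* (130 ± 62.9), *Stat3* (116 ± 7.32), *Socs3* (103 ± 12.7), *Jak2* (22.5 ± 3.99), *Stat5b* (21.6 ± 4.33), *Stat5a* (12.9 ± 0.938), *Cish* (4.71 ± 1.44), *Socs1* (3.55 ± 0.942) and *Socs2* (1.65 ± 0.323). In these libraries *Pim1* overlapped *Stat6*, *Stat3* and *Socs3*, and *Stat3* overlapped *Socs3*, while *Stat6* lay above *Stat3* and *Socs3* in every library. *Jak2* also overlapped *Stat5b*, and *Cish* overlapped *Socs1*. *Jak2* lay below *Stat5a* in every blood library and above it in every brain library.

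**Figure D3:**
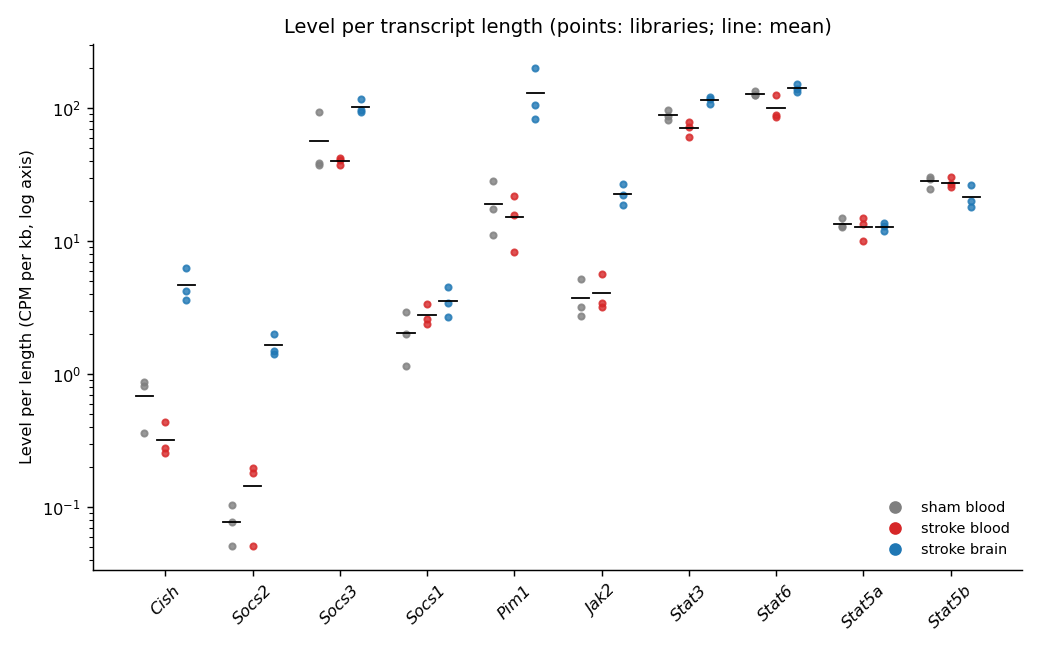
Level per transcript length in CPM per kb (vertical log axis) of the 10 genes, with points for single libraries and a line for the group mean. *Cish* and *Socs2* are the lowest in blood (means of 0.322 and 0.143 CPM per kb in stroke blood), and *Pim1* and *Jak2* cross above genes that exceed them in blood.

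Some members of the SOCS, JAK and STAT families were called and others were not. Of the 8 SOCS genes, *Cish*, *Socs2* and *Socs3* were called higher in the brain than in stroke blood, and *Socs4*, *Socs5*, *Socs6* and *Socs7* had log2 fold changes between -0.29 and 0.03, with none called. *Socs3* made up 70.3 ± 1.60% (SD, n = 3) of the SOCS family sum of CPM per kb in stroke blood and 81.7 ± 1.86% in the brain, while the share of *Socs6* was 18.2 ± 3.04% and 7.55 ± 1.15%. In sham blood these shares were 74.5 ± 12.4% and 15.6 ± 8.19%, with ranges that overlapped those of the brain. The family sum was 57.0 ± 3.11 CPM per kb in stroke blood and 125 ± 12.8 in the brain.

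*Jak2* was the least abundant JAK gene per length in stroke blood, where it took 4.10 ± 1.68% of the family sum, and took 13.5 ± 1.60% in the brain. *Jak1*, the most abundant one, and *Jak3*, the partner of the common gamma chain, passed the P-value but not the fold threshold (0.48 ± 0.16 and 0.79 ± 0.23 on the log2 scale, adjusted P = 0.0428 and 0.0267). *Tyk2*, which serves interferon and IL-12 receptors, differed by -0.04 ± 0.19 (adjusted P = 0.883). All 3 PIM kinase genes were called higher, with *Pim3* at 2.66 ± 0.23 (adjusted P = 6.7e-05) and *Pim2* at 1.35 ± 0.45 (adjusted P = 0.0476). Against sham blood, *Pim2* was not called (0.85 ± 0.30, adjusted P = 0.0824).

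Of 6 STAT genes tested, the 1 called was *Stat4*, which is not among the 10 and is known from T and NK cells, with 5.81 ± 0.939 CPM in stroke blood and 15.8 ± 2.66 CPM in the brain (1.29 ± 0.26, adjusted P = 0.00582). It was not called against sham blood (0.27 ± 0.31, adjusted P = 0.578). The 11 T and NK cell markers summed to 314 to 1010 CPM in stroke blood and 857 to 1710 CPM in the brain, with *Cd3d*, *Cd3g* and *Lck* called higher, and their part in it was not tested. *Stat6* and *Stat3* made up 43.7 ± 2.80% and 31.3 ± 3.19% of the summed CPM per kb of these 6 STAT genes in stroke blood, and 45.3 ± 2.14% and 36.9 ± 2.14% in the brain.

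**Figure D4:**
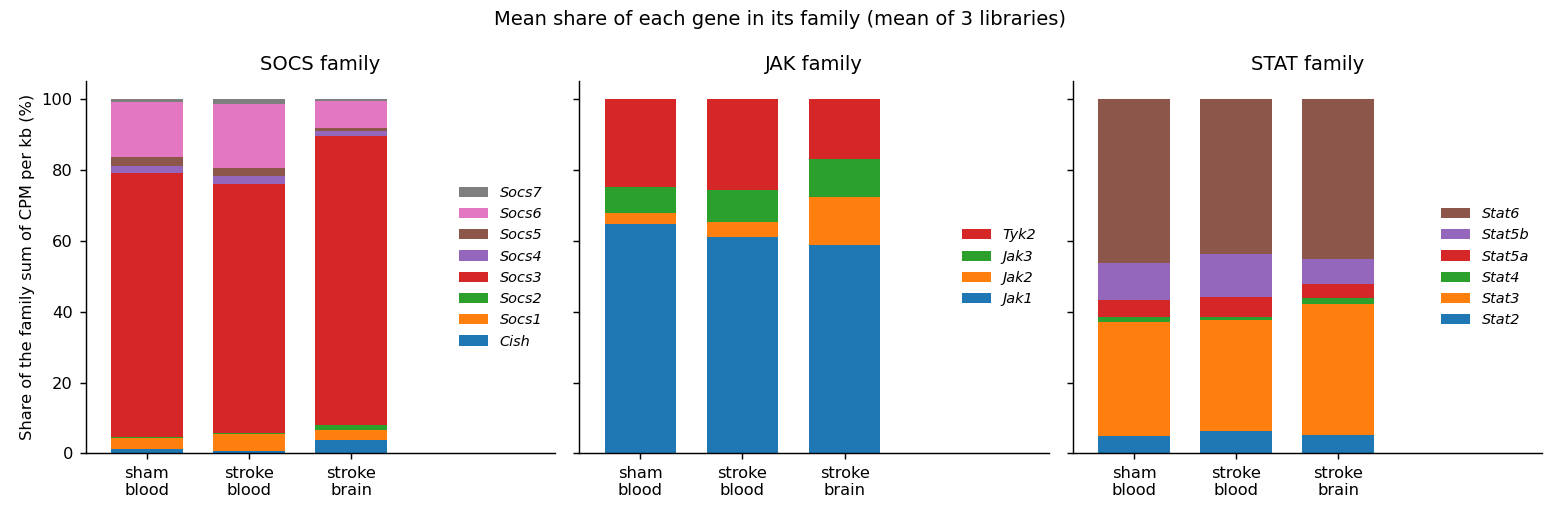
Mean share of each gene in the summed CPM per kb of 8 SOCS, 4 JAK and 6 STAT genes (vertical axis, percent) in sham blood, stroke blood and stroke brain, 3 libraries each. *Socs3* is the largest SOCS share in all groups, and the *Jak2* share is 13.5% in the brain and 4.10% in stroke blood.

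The wider pathway was read from 13 lists of 112 genes, of which 102 are not among the 10. Of 83 such genes tested between brain and stroke blood, 29 were called higher and 5 lower, with a median log2 fold change of 0.76. Over all genes tested there, 13.1% were called higher and 7.86% lower. Against sham blood, 24 of 83 were called higher and 4 lower, with a median of 0.50, beside 9.75% and 3.67% of all genes tested. Among ligands of the gp130 receptor, which signal through STAT3, *Osm* had 8.18 ± 2.15 CPM in stroke blood and 612 ± 63.2 CPM in the brain (6.07 ± 0.25, adjusted P = 1.31e-06), and *Lif*, *Il6* and *Clcf1* rose by 4.01 ± 0.76, 2.85 ± 0.74 and 2.58 ± 0.51. These were 4 of the 8 genes tested in that list, and none of the receptor genes tested was called. Against sham blood, the receptor gene *Il11ra1* was called higher (1.04 ± 0.23, edgeR adjusted P = 0.0181). The receptor gene *Osmr* was not tested, with no count in blood and at most 10 counts in a brain library. *Il10*, the ligand of another STAT3 receptor, had at most 1 count in a blood library and 35 to 48 counts in a brain library (adjusted P = 0.000944), and its receptor chain *Il10rb* rose by 1.11 ± 0.22 but did not pass the fold threshold against sham blood (0.92 ± 0.20). *Ifng* rose by 2.61 ± 0.70 (adjusted P = 0.0203), and the other genes tested in the interferon list were not called.

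Among common gamma chain and type 2 cytokines and their receptors, 4 of 10 genes tested rose, all of them receptor genes. *Il4ra*, the receptor chain for IL-4 and IL-13 that recruits STAT6, had 145 ± 22.0 CPM in stroke blood and 375 ± 51.5 CPM in the brain (1.22 ± 0.18, adjusted P = 0.00114). It had 135 to 342 CPM in sham blood, which overlapped the brain, and was not called there (0.72 ± 0.35, adjusted P = 0.188). *Il7r* and *Il21r* rose by 3.79 ± 0.49 and 3.75 ± 0.20. *Il2ra* had 0 to 3 counts in stroke blood and 19 to 87 in the brain. The T and NK cell markers given beside *Stat4* moved in the same direction as *Ifng*, *Il7r*, *Il21r* and *Il2ra*, and their part in these rises was not tested. Of the 7 genes tested among colony stimulating factors and receptors that use JAK2, none was called higher, and *Csf2rb*, the shared chain of the GM-CSF, IL-3 and IL-5 receptors, differed by 0.02 (adjusted P = 0.963). *Il3ra* fell by 1.35 on the log2 scale (adjusted P = 0.0383) and was not called against sham blood (adjusted P = 0.0748). The summed platelet markers were at 18.1 to 670 CPM in sham blood, 324 to 405 CPM in stroke blood and 38.3 to 84.0 CPM in the brain. *Il3ra* held 9.34 to 10.1 CPM in sham blood, and the part of platelet transcripts in its fall was not tested.

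Of 12 other negative regulators, which comprise PIAS proteins, tyrosine phosphatases, *Sh2b3*, *Cbl* and *Usp18*, 0 were called in either direction by edgeR, and the median was -0.10. *Ptpn2*, a phosphatase for JAKs and STATs, had the largest difference, 0.64, with an adjusted P of 0.0361. Of the SOCS genes and these other regulators together, the genes called were therefore *Cish*, *Socs2* and *Socs3*.

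Genes known as STAT targets were read from lists that share members and were chosen with earlier results of these data known. Over all genes tested between brain and stroke blood, 13.1% were called higher and 7.86% lower. *Junb*, 1 of the STAT3 targets called higher, is also among the early genes that handling can induce. STAT activity was not measured. Of 10 STAT5 targets, 7 rose and 2 fell. Apart from *Cish*, *Socs2* and *Pim1*, they included *Ccnd1*, a cyclin of the G1 phase (4.58 ± 0.43, adjusted P = 0.000116), and those that fell were *Bcl6* and *Id1*, by 1.15 and 1.10. Of 14 STAT6 targets, 8 rose, among them *Arg1*, which splits arginine (7.27 ± 0.41), *Tgm2*, a transglutaminase (5.06 ± 0.20), the transcription factor *Egr2* (5.20 ± 0.60) and the chemokine *Ccl22*, which had no count in blood and 40.1 ± 13.6 CPM in the brain, at least 270-fold higher than in stroke blood against a floor of 3 counts per library. *Chil3*, another gene of this list, fell by 1.42 (adjusted P = 0.00267).

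Of 14 STAT3 targets, 9 rose, including *Myc* (2.93 ± 0.24), the IL-1 receptor antagonist *Il1rn* (3.01 ± 0.20) and the protease inhibitor *Timp1*, at 0 counts in stroke blood and 20.7 ± 4.78 CPM in the brain (at least 139-fold higher against the same floor), while *Bcl6* and *Cebpd* fell, the latter by 1.36 (adjusted P = 0.00202). Against sham blood, 5 of the 14 were called higher and 2 lower, with a median of 0.72 beside 1.29 against stroke blood. Over all genes tested against sham blood, 9.75% were called higher and 3.67% lower. *Socs3*, *Il4ra*, *Mcl1* and *Hif1a* were not called there, nor was *Bcl6* (-0.63, adjusted P = 0.275). Of the STAT5 and STAT6 targets, 7 each were called higher against sham blood and 1 each lower (*Id1* and *Chil3*). None of the genes of the 13 lists was called between stroke and sham blood, out of 84 tested. Exons of *Stat4*, *Ifng*, *Ccnd1*, *Cebpd* and *Il10rb* share 26.68%, 25.95%, 23.36%, 15.0% and 14.94% of their bases with another gene, and their values are uncertain for that reason. The same holds for *Tgm2*, which shares 13.74% with Gm20412 and 8.03% with Rprd1b. Some other listed genes have overlaps that are not given.

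**Figure D5:**
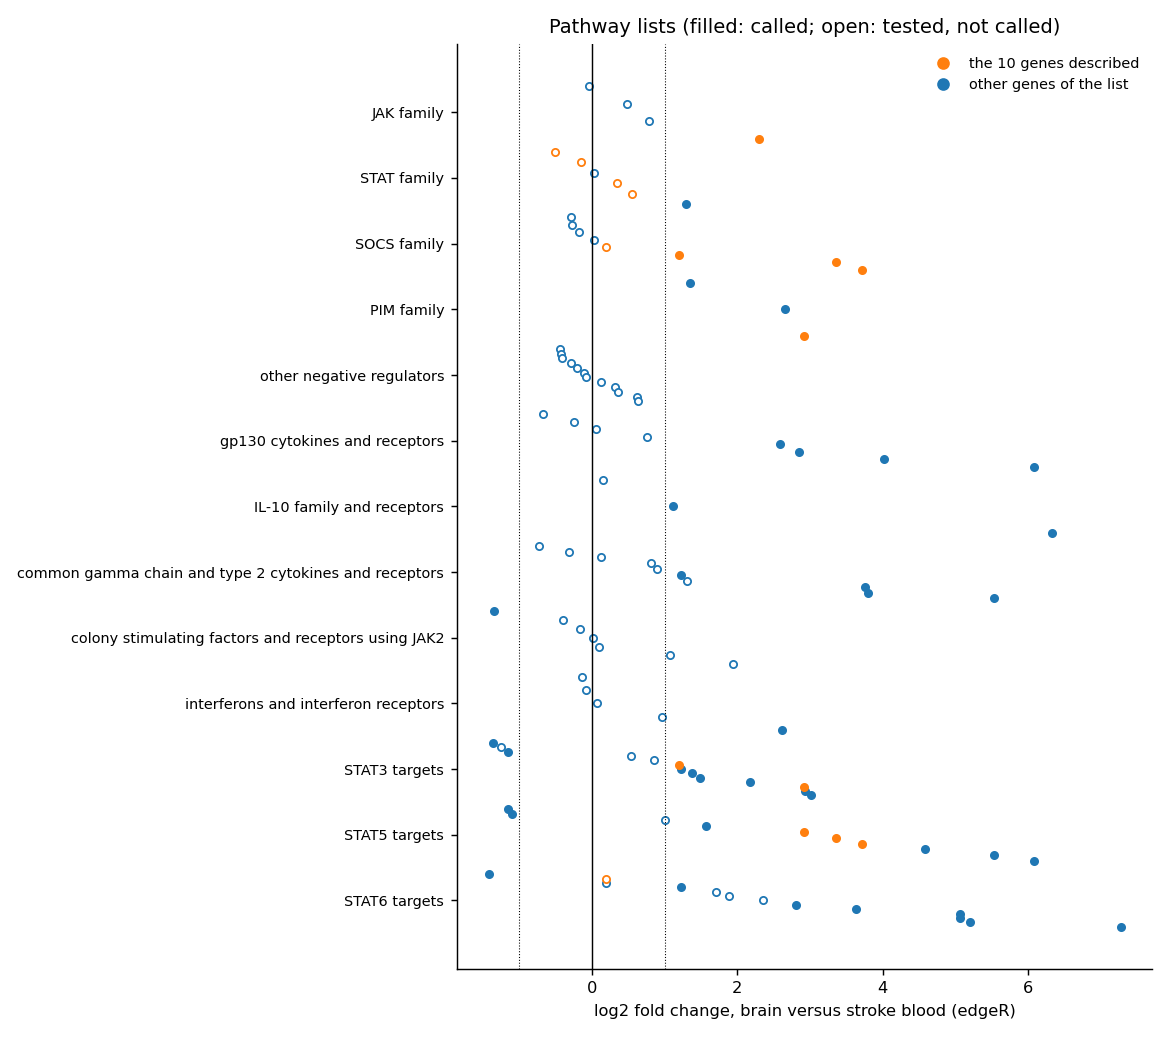
Log2 fold change between brain and stroke blood (horizontal axis) of the genes tested in each of the 13 pathway lists (rows), with orange for the 10 genes described, blue for other genes, filled points for called genes and dotted lines at -1 and 1. *Timp1* and *Ccl22*, which have a group without counts, are not drawn. The points of the other negative regulators are all open, between -0.44 and 0.64.

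The genes with the most similar pattern over the 9 libraries were found by Pearson correlation of log2 CPM among 7690 genes with a mean of at least 10 CPM. Brain and blood libraries stand apart, so the correlations mainly carry that difference and are given as a description. The closest gene was *Jdp2* for *Cish* (r = 0.992, followed by *Cd14* and *Supt20*), *Cd274* for *Socs2* (r = 0.978, followed by *Cd36* and *Ckb*), *Il4ra* for *Socs3* (r = 0.982, followed by *Ripk3* and *Slc2a1*), *Chd7* for *Jak2* (r = 0.989, followed by *Ube2m* and *Pmepa1*) and *Rrm2* for *Pim1* (r = 0.986, followed by *Gadd45g* and *Ppp1r15a*). *Il4ra* had its highest sham blood level, 342 CPM, in the library that also had the highest *Socs3* level. For genes with no called difference, the closest were *Map3k8* for *Socs1* (r = 0.908, followed by *Gbp2* and *Tmed5*), *Ptbp1* for *Stat3* (r = 0.971, followed by *Eps8* and *Hrh2*), *Tbc1d2* for *Stat5a* (r = 0.984, followed by *Dffb* and *Tmem164*), *E2f2* for *Stat5b* (r = 0.976, followed by *Gypc* and *Ppa2*) and *Sacm1l* for *Stat6* (r = 0.978, followed by *Adam17* and *Lman1*). *Socs1*, *Socs2* and *Cish* have means below 10 CPM and so could not be listed as a closest gene. None of the other members was among the 3 closest genes of another. The highest correlation between members was that of *Cish* and *Pim1* (r = 0.95).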

How the data were processed

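RNA of sorted monocytes/macrophages was sequenced from 3 sham blood, 3 stroke blood and 3 stroke brain libraries, grouped by the surgery and tissue of their labels. For each library the authors amplified cDNA (SMART-Seq HT), tagmented it (Nextera XT) and sequenced 75-base read pairs, which were aligned to GRCm38 by HISAT2 and assigned to genes by HTSeq. The deposited counts are raw, with no scaling applied. Versions, annotation release and strand setting were not given in the sources used here. PCR copies were not marked by molecular identifiers, so floors cover counting error only.

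GENCODE M21 gave symbols, exons and transcript lengths and held 53620 of the 53801 identifiers, and 28399 genes had no count. Coordinates are those of the files, and promoter windows those of RefSeq (GRCm38.p6). Of the 10 genes, 9 had a window. edgeR 4.0.16 in R 4.3.3 was used for each pair of groups (filterByExpr, TMM, quasi-likelihood test, Benjamini-Hochberg adjustment), checked on simulated counts. The SE is the log2 fold change over the root of F, and 95% intervals use its degrees of freedom. DESeq2 1.42.0, other scalings, filters and thresholds, a single fit, a replicate block and each library left out were the alternatives. The software was Python 3.11.15 with numpy 2.4.6, scipy 1.17.1, pandas 2.3.3 and matplotlib 3.10.9.

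The 10 genes and all lists were chosen with earlier results of these data known. Besides the 10, the text names from each pathway list at most the 4 called, non-overlapping genes with the largest change between brain and stroke blood, other members of the 4 families and the 3 most similar genes. *Bcl6*, *Id1*, *Cebpd*, *Chil3*, *Csf2rb*, *Mcl1*, *Hif1a*, *Ptpn2*, *Il11ra1* and *Osmr* were named after their values were seen. Some listed genes are not reported here, and list counts and family shares leave them out. The border macrophage, dendritic, neural and endothelial and B cell marker lists were also summed. These sums were 14.5 to 25.4, 83.5 to 211, 187 to 323 and 64.0 to 108 CPM in stroke blood and 56.7 to 189, 559 to 694, 126 to 192 and 47.0 to 91.3 CPM in the brain.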

Additional observations from a re-analysis of the deposited data

How the results depend on the processing

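The 5 genes higher in brain than stroke blood, the 0 called between stroke and sham blood and the 4 higher than sham blood were counted under 16 alternatives each. The first count became 6 without a fold threshold (*Stat3*), and the last became 5 without sham blood replicate 3 (*Socs3*). No other alternative changed these counts. Over all genes, calls between brain and stroke blood numbered 2771 (2258 to 3014 with a library left out) and 1793 at an adjusted P below 0.01. Those against sham blood numbered 1748 (1146 to 1883, the lowest without sham blood replicate 3) and 792 at 0.01. Between stroke and sham blood they numbered 1, and 135 with DESeq2, 160 without the filter, 0 at 0.01 and 0 to 16 with a library left out, the highest without sham blood replicate 1. The cause was not tested.

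Differences near 0 changed sign. Between brain and stroke blood, *Socs1* was at -0.01 without brain replicate 1 and *Stat5a* at 0.01 by library size only. Between stroke and sham blood, *Socs3* was at 0.11 without sham replicate 3, *Stat5a* at 0.03 with upper-quartile scaling, 0.08 without stroke blood replicate 3 and 0.03 without sham replicate 3, *Stat5b* at -0.03 by library size only, -0.01 without the filter, -0.08 without stroke blood replicate 2 and -0.06 without sham replicate 1, *Jak2* at -0.15 without stroke blood replicate 3, and *Pim1* at 0.01 without stroke blood replicate 2 and 0.15 without sham replicate 1. Against sham blood, *Stat6* was at -0.05 with upper-quartile scaling, -0.04 without brain replicate 2 and -0.01 without sham replicate 2. None of these was called. With a library left out, these values ranged from -0.01 to 0.36 for *Socs1* and from -0.30 to -0.09 for *Stat5a* between brain and stroke blood, from -0.69 to 0.11 for *Socs3*, -0.18 to 0.08 for *Stat5a*, -0.08 to 0.05 for *Stat5b*, -0.15 to 0.50 for *Jak2* and -0.66 to 0.15 for *Pim1* between stroke and sham blood, and from -0.04 to 0.08 for *Stat6* against sham blood. The labels do not say whether the replicate numbers pair the libraries. Correlations of same-numbered libraries ran from -0.066 to 0.065 and those of other pairs from -0.075 to 0.109. With 3 libraries per group, these values cannot decide whether mice were shared. A replicate block gave 2634, 1 and 1571 calls over all genes and changed none of the calls of the 10. Depth limits *Socs2* in blood (4 to 18 counts) and *Cish* in stroke blood (15 to 23 counts).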
